A study of Drosophila melanogaster with 30 samples.

Results

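Nuclear RNA of activated flies of the line MB477 was compared with that of activated flies of the line MB131, over all expressed genes of Drosophila melanogaster. The comparison rests on the 6 libraries whose titles give these lines and the activation, 3 per line, of 30 libraries in 10 groups in the series, and on 11457 genes tested of 17559 counted. By its title, the study looked for genes under the control of Kdm4B, which removes methyl groups from histone lysines. Nuclei labelled as mushroom body were taken from fly heads by a pull-down of their FLAG tag, and polyadenylated nuclear RNA was sequenced.

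Flies of both groups are labelled with the strain CS10 and were kept at 25 °C in a light and dark cycle. Both were given red light for 5 min and then rested for 10 min before collection. Red light opens CsChrimson, a light-gated cation channel, in the cells that express it. Neither group carried RNA interference (RNAi) against Kdm4B. The cells that MB131 and MB477 mark, the carrier of the FLAG tag, and the age and sex of the flies are not stated in the labels. Nor do they state whether the 3 libraries of a group came from separate flies, so the p-values hold for the spread between libraries only, and that spread may be technical.

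The mushroom body is the brain structure in which flies form olfactory memories. Its intrinsic neurons, the Kenyon cells, receive odour input through acetylcholine and nicotinic receptors, and dopamine neurons write memories onto their outputs through dopamine receptors and the cAMP pathway. Driver lines such as MB131 and MB477 are used to express a transgene in a chosen set of cells, and separately kept fly lines also differ in the alleles they carry. A line comparison therefore sets side by side the cells, the transgenes and the genetic backgrounds of the lines, and these cannot be told apart here.

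The 6 libraries held 10998666 to 14344348 counts, within the range of 8291599 to 14344348 over all 30. On the first principal component of the 6 libraries, with 51.1% of the variance, MB477 lay at 25.5 to 28.4 and MB131 at -27.6 to -26.6. Kdm4B, encoded on 2R, was at 1.13, 0.415 and 1.89 CPM (counts scaled by library size) in the MB477 libraries and at 1.59, 0.733 and 1.11 CPM in the MB131 libraries, with a log2 fold change of 0.02 ± 0.58 (standard error, SE) and an edgeR adjusted p = 0.990. The groups overlapped, and at this depth and with this SE neither a small nor a 2-fold change in Kdm4B could be detected reliably. Genes that mark Kenyon cells were abundant, with summed levels of 6184 to 8969 CPM over 24 markers. Markers of other head tissues were also abundant, with summed levels of 28643 to 51426 CPM for fat body and 28764 to 31239 CPM for photoreceptors. In such bulk libraries, fewer cells of a type and less RNA per cell cannot be told apart.

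The lines differed widely. Of the 11457 genes, 1655 were higher in MB477 (14.4%) and 1699 were lower (14.8%) at an adjusted p below 0.05 in edgeR's quasi-likelihood test, adjusted over all tested genes by the method of Benjamini and Hochberg, which is what "called" means here. Most of the differences were small: 245 genes were higher by over 2-fold (2.14%) and 197 were lower by over 2-fold (1.72%). The median log2 fold change over all genes was -0.00, with an interquartile range from -0.19 to 0.21. The levels of the lines did not overlap in 4685 genes (40.9%). The shares called on 2L, 2R, 3L, 3R and X lay between 27.4% and 30.5%. On the small chromosome 4, 41 of 101 genes were called (40.6%), 10 higher and 31 lower.

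**Figure D1:**
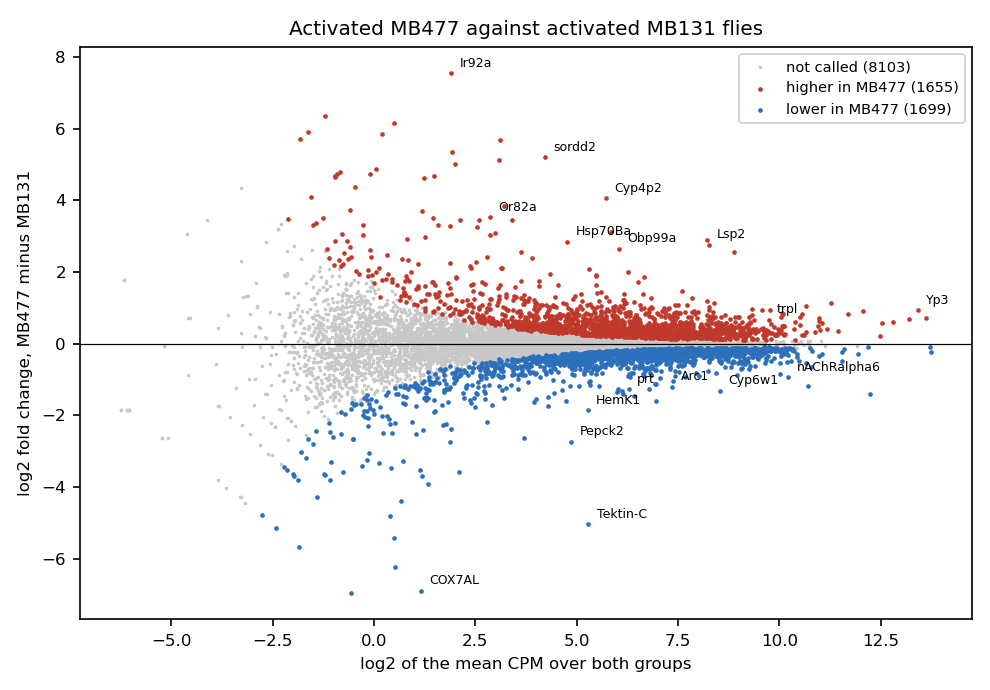
Log2 fold change of activated MB477 minus activated MB131 flies (y) against the log2 of the mean CPM of both groups (x), for 11457 tested genes less 12 at 0 in all 6 libraries. Red points are the 1655 called genes that were higher in MB477, blue points the 1699 that were lower, and the genes far from 0 lie at every level but mostly at low ones.

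Genes named as the largest changes were mostly taken from called genes whose lines did not overlap in CPM and whose higher line averaged at least 5 CPM. For them that separation follows from the choice. Some of the largest increases were in chemoreceptors and membrane channels. Ir92a, an ionotropic receptor gene encoded on 3R at 20338973 to 20343902, was at 8.80, 6.73 and 6.76 CPM in the MB477 libraries and at 0, 0.0916 and 0 CPM in the MB131 libraries. This is 275 reads against 1, a ratio of 257 with an exact 95% interval of 45.8 to 10197 that covers counting error only. Or65c, an odorant receptor gene on 3L at 6327608 to 6329069, stood at 7.84, 5.40 and 9.01 CPM against 0, 0.183 and 0.317 CPM. Every MB477 library lay far above every MB131 library for both genes, and MB131 was at or near 0. Or82a, a further odorant receptor gene, was at 13.2, 13.3 and 13.5 CPM against 0.617, 1.56 and 1.27 CPM (log2 fold change 3.53 ± 0.32 SE, edgeR adjusted p = 2.61e-17). ppk20, of the pickpocket family of sodium channels, had 286 reads in MB477 and 8 in MB131, a ratio of 33.4 (interval 16.7 to 78.2). The list of odorant, gustatory and ionotropic receptors had 57 tested genes, which include Snmp1 and Snmp2, sensory membrane proteins outside these receptor families. Of the 57, 11 were higher, Snmp2 among them, and 5 lower, a share of 28.1% beside 29.3% of all genes. The 11 higher genes became 7 when MB131 library 1, 2 or 3 was left out. The 5 lower ones became 3 without MB131 library 1 or 3 or MB477 library 2.

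A cytochrome P450 gene was also among the large increases. Cyp4p2, a cytochrome P450 gene on 2R at 9237512 to 9239831, was at 101, 101 and 94.8 CPM in the MB477 libraries and at 6.44, 6.50 and 5.07 CPM in the MB131 libraries, 16.5-fold higher (log2 fold change 4.05 ± 0.12 SE, edgeR adjusted p = 1.14e-49). The groups were tight and lay far apart. It lies inside hig, which is transcribed from the opposite strand, and whether the counting used strand is not stated. Among the P450 genes, enzymes of detoxification and hormone metabolism, 26 of 79 tested members were higher and 14 lower, a share of 50.6% beside 29.3% of all genes, with a median of 0.05. Cyp6a14 was higher by 3.46 ± 0.36 on the log2 scale and Cyp12a5 by 1.74 ± 0.15, while Cyp49a1 fell by 2.18 and Cyp6w1 fell by 1.31. Of 31 glutathione transferase genes, which code enzymes that conjugate toxins, 12 were higher, 1 lower and 18 not called. The number lower was 2 without MB131 library 1, with DESeq2 in place of edgeR, and in fits of the compared libraries alone. Over all genes, 29.3% were called. GstE8 rose by 1.61 ± 0.17 and GstE3 by 1.06 ± 0.08 on the log2 scale, while GstD11 fell by 1.18.

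Large increases were also seen in genes of other kinds. sordd2, encoded on X, was at 35.3, 33.8 and 39.5 CPM against 1.15, 0.733 and 1.03 CPM, 36.8-fold higher. phr, the photolyase that repairs ultraviolet lesions of DNA, was at 19.7, 18.6 and 19.6 CPM against 2.20, 1.37 and 1.67 CPM, 11.0-fold higher. Odc2, an ornithine decarboxylase of polyamine synthesis, was at 16.4, 19.3 and 13.8 CPM against 0.264, 0.824 and 0.317 CPM. For these genes the lowest MB477 library was above the highest MB131 library by several fold, with edgeR adjusted p-values of 1.50e-37, 6.88e-23 and 6.46e-24. Amy-p, a digestive amylase, rose by 3.02 ± 0.29 on the log2 scale, from 2.20, 0.641 and 1.82 CPM in MB131 to 12.4, 14.8 and 11.4 CPM in MB477. Its near-identical neighbour Amy-d rose by 0.44 ± 0.14, and reads of the pair may have been split between them in counting.

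Among the largest decreases, Tektin-C, a filament protein of cilia and sperm tails on 3L at 5794405 to 5796543, was at 2.61, 2.08 and 2.18 CPM in the MB477 libraries and at 77.2, 74.4 and 75.1 CPM in the MB131 libraries. It was 33.0-fold lower in MB477 (log2 fold change -5.04 ± 0.15 SE, edgeR adjusted p = 6.28e-51), with no overlap. Pepck2, a phosphoenolpyruvate carboxykinase, was at 8.01, 6.48 and 8.29 CPM against 51.1, 51.3 and 49.9 CPM, a fall of 2.74 on the log2 scale. HemK1, a methyltransferase gene on 2L, was at 15.4, 18.1 and 16.6 CPM against 61.0, 58.2 and 63.0 CPM. For both genes the spread within a line was a small part of the distance between the lines. COX7AL, which by its name is a variant of a cytochrome c oxidase subunit, had 1 read in the MB477 libraries and 156 in the MB131 libraries, a ratio of 167 with an interval of 29.5 to 6629. lncRNA:CR44460, a long noncoding RNA on 2R, had no read in MB477 and 47 in MB131, at least 16.7-fold lower by a floor of 3 counts over the group. f, the forked gene of actin bundles in bristles, was at 0.435, 0.914 and 1.38 CPM against 7.05, 7.51 and 4.52 CPM.

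The same lines were compared in libraries from flies with RNAi against Kdm4B, none of which is shared with the 6 libraries above. In activated flies with RNAi, 1903 genes were higher in MB477 (16.6%) and 1787 were lower (15.6%). Of the 1655 genes higher without RNAi, 1170 were also higher there (70.7% of the first list and 61.5% of the second), and 21 were lower. Of the 1699 lower genes, 1014 were also lower (59.7% and 56.7%), and 43 were higher. In naive flies with RNAi, which saw no activation, 729 of the higher genes (44.0%) and 723 of the lower genes (42.6%) were called in the same direction, against 68 and 97 in the opposite one; 11.2% of all genes were called higher and 11.6% lower in that pair. Of the genes over 2-fold apart in activated flies without RNAi, 90 higher ones (36.7%) and 49 lower ones (24.9%) were over 2-fold apart in both RNAi pairs too. Of all genes, 2.51% and 1.35% were over 2-fold higher and lower in activated flies with RNAi, and 1.87% and 1.73% in naive flies with RNAi.

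**Figure D2:**
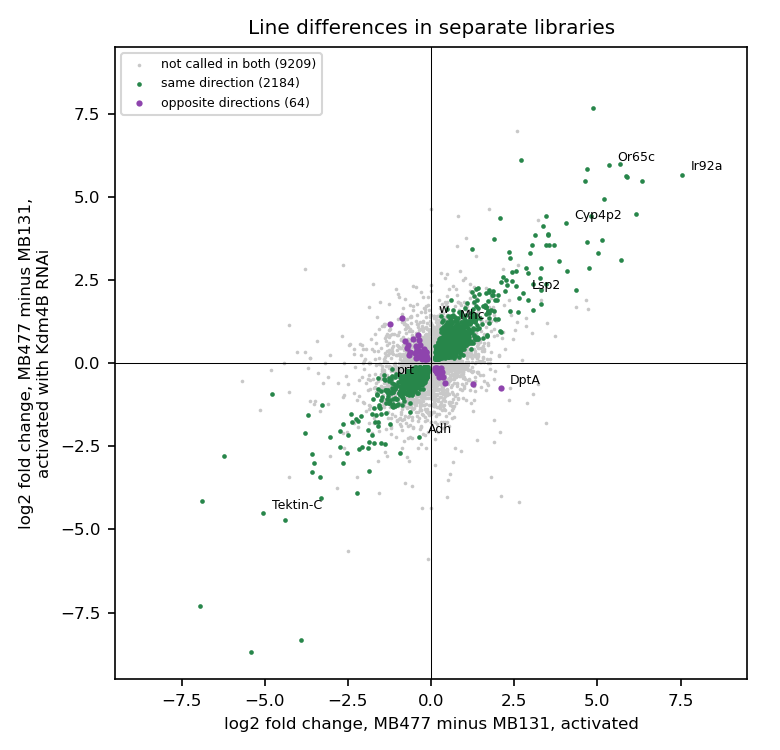
Log2 fold change of MB477 minus MB131 in activated flies (x) and in activated flies with Kdm4B RNAi (y), for 11457 genes measured in separate libraries. Green points are 2184 genes called in the same direction in both, and purple points are 64 called in opposite directions. Or65c, Cyp4p2 and Tektin-C lie near the diagonal. DptA and w lie off it, and so does Ir92a, which is high in both pairs (7.55 and 5.67).

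The activated flies without CsChrimson gave a further reference for these line differences. Of the 90 genes over 2-fold higher in MB477 in all 3 pairs, 87 lay nearer to MB131 than to MB477 in flies without CsChrimson, and 3 lay nearer to MB477. Cyp4p2 was at 6.02 ± 1.80 CPM (SD, n = 3) there, sordd2 at 1.32 ± 0.848 CPM, Or82a at 1.28 ± 0.721 CPM and phr at 1.91 ± 0.786 CPM. Each of these levels was close to that of MB131. The 49 lower genes were more divided, with 34 nearer to MB131 and 15 nearer to MB477. Tektin-C, at 3.77 ± 1.32 CPM, HemK1, at 19.5 ± 0.542 CPM, and Cyp49a1, at 2.67 ± 0.673 CPM, were close to MB477, so that MB131 was the group that stood apart. Pepck2, at 32.7 ± 1.28 CPM, lay between the lines but nearer to MB131. The line of the flies without CsChrimson is not stated.

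**Figure D3:**
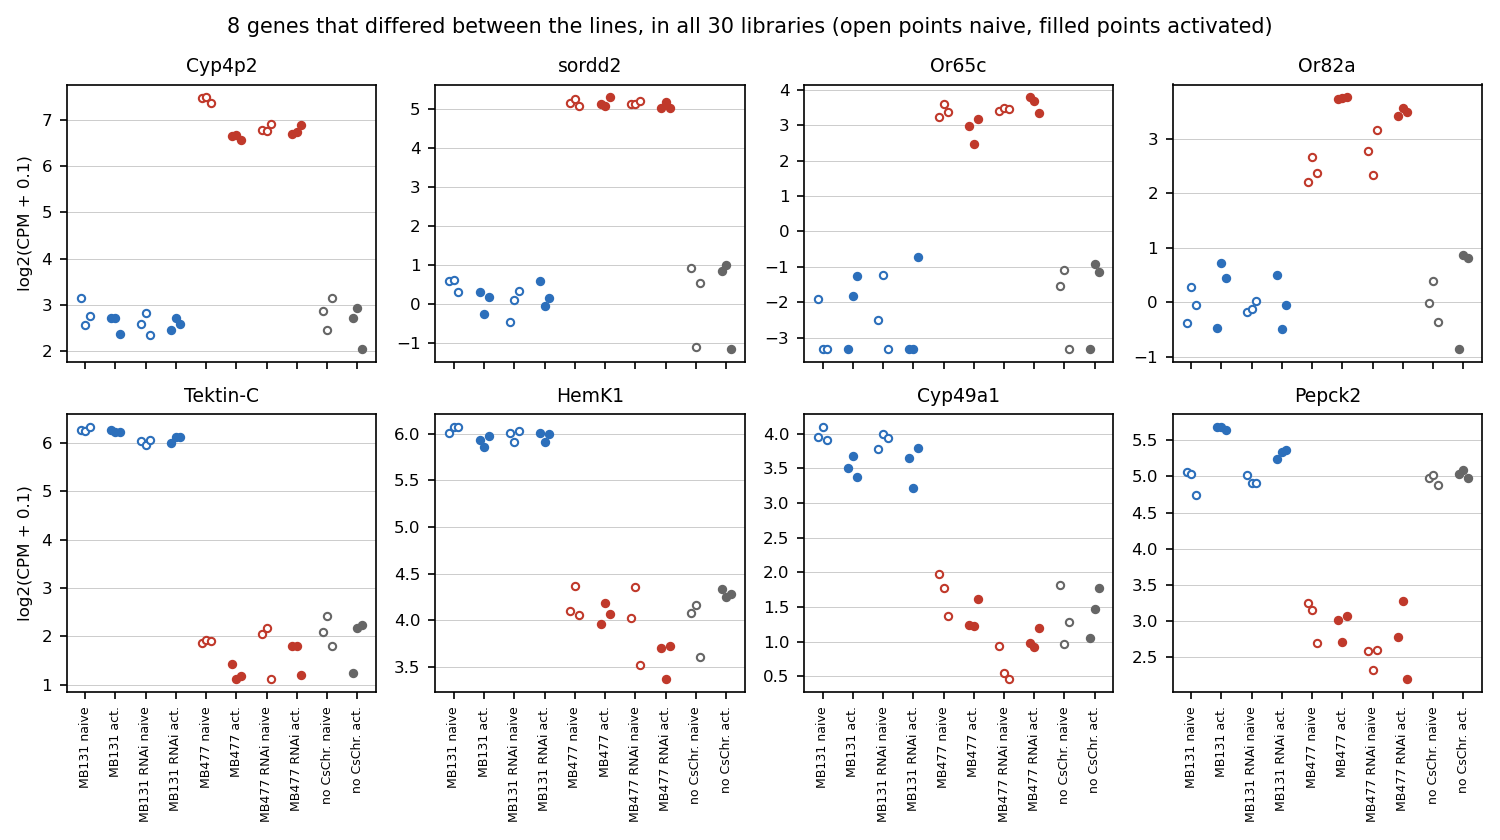
Levels as log2(CPM + 0.1) of 8 genes (panels) in all 30 libraries, by group (x; blue MB131, red MB477, grey flies without CsChrimson; open points naive, filled points activated). In each panel the MB477 and MB131 libraries do not overlap in any of the 4 conditions, and flies without CsChrimson lie with MB131 for Cyp4p2, sordd2, Or65c and Or82a but with MB477 for Tektin-C, HemK1 and Cyp49a1.

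Kenyon cell genes were lower in MB477 almost throughout. Of 24 tested markers, 21 were lower and 1 was higher, beside 14.8% and 14.4% of all genes. Their median log2 fold change was -0.39, and their summed level was 6184 to 6701 CPM in MB477 and 8555 to 8969 CPM in MB131. prt, the portabella transporter of Kenyon cells, was at 45.8, 48.7 and 42.8 CPM in the MB477 libraries and at 112, 107 and 112 CPM in the MB131 libraries (log2 fold change -1.27 ± 0.07 SE, edgeR adjusted p = 2.23e-26). sNPF, the neuropeptide that Kenyon cells release, was at 261, 246 and 246 CPM against 455, 443 and 434 CPM (-0.82 ± 0.04). No MB477 library reached the lowest MB131 library for either gene. dac and ey, transcription factors of Kenyon cell identity, fell by 0.85 and 0.75 on the log2 scale. SPR, the sex peptide receptor, was the exception, with a rise of 0.38 ± 0.07. The activated flies without CsChrimson had the highest summed level of these markers, 10336 to 10676 CPM.

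Several genes of memory signalling were lower. Dop1R2, the dopamine receptor known for its part in forgetting, was at 91.7, 82.8 and 95.1 CPM against 178, 178 and 170.2 CPM, a fall of 0.96 on the log2 scale, and Dop1R1, the dopamine receptor needed for learning, fell by 0.54. rut, the adenylyl cyclase of associative learning, was at 354, 325 and 366 CPM against 557, 569 and 524 CPM, a fall of 0.66, and dnc, the cAMP phosphodiesterase, fell by 0.19. The groups did not overlap for Dop1R2 or rut. These genes are also on the Kenyon cell list. Of 24 genes of cAMP and calcium signalling, 12 were lower, 3 higher and 9 not called. Of 26 genes of amine synthesis and amine receptors, 12 were lower, 3 higher and 11 not called. Among all genes, 14.8% were lower and 14.4% higher. The 3 higher amine genes became 1 without MB131 library 3, MB477 library 1 or MB477 library 3. The increases included CanA1, a calcineurin subunit, at 0.89 ± 0.19, and CaMKI, a calmodulin-dependent kinase, at 0.37 ± 0.04.

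Nicotinic receptor genes were mostly lower, and other lists of neuronal genes varied. nAChRalpha6, a subunit of the nicotinic receptor and the target of spinosyn insecticides, was at 820.2, 804 and 845 CPM in the MB477 libraries and at 1554, 1542 and 1596 CPM in the MB131 libraries (log2 fold change -0.93 ± 0.04 SE, edgeR adjusted p = 2.49e-39). Of 10 nicotinic subunits, 8 were lower and none higher, with a median of -0.31. Over all genes, 29.3% were called. Of 21 potassium channel genes, 11 were lower, 2 higher and 8 not called. The 2 higher ones became 1 without library 2 or 3 of either line, and their number also moved with other size factors and with DESeq2. Irk3 was at -0.48 and Sh, the Shaker channel, at -0.35 on the log2 scale. Of 16 sodium and calcium channel genes 5 were lower, 1 was higher and 10 were not called, with a median of -0.02. Of 25 GABA and glutamate genes 10 were lower, 4 higher and 11 not called. Their median was -0.03, and 0.01 without MB477 library 1. General neuronal markers were lower in 7 of 12 cases and higher in none, with elav, the pan-neuronal RNA-binding protein, at -0.15 ± 0.05 and Syt1, the calcium sensor of release, at -0.02 ± 0.04. Of 22 presynaptic release genes 8 were lower, 1 higher and 13 not called, with Rbp, the Rim-binding protein, at -0.49 ± 0.05. Of 53 dpr, DIP, beat and side genes, which code cell surface proteins of synaptic wiring, 16 were lower and 2 higher, a share of 34.0% beside 29.3% of all genes.

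Markers of photoreceptors and glia were lower more often than higher. Of 30 photoreceptor and phototransduction genes, 17 were lower and 3 higher, beside 14.8% and 14.4% of all genes. Their median was -0.13, and their summed level was 28764 to 28893 CPM in MB477 and 30956 to 31239 CPM in MB131. rdgC, the rhodopsin phosphatase, fell by 0.43 on the log2 scale. trpl, which codes a cation channel subunit of photoreceptors, went the other way (0.67 ± 0.04). It rose from 639, 669 and 668 CPM in MB131 to 1036, 1048 and 1064 CPM in MB477, with no overlap. Of 16 glial markers, 8 were lower and 3 higher, with a median of -0.14. The glial glutamate transporter Eaat1 was the largest increase among them, at 0.75 ± 0.04, and repo, the defining factor of most glia, was at -0.21 ± 0.08 (edgeR adjusted p = 0.0221).

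Fat body genes were higher in MB477. The fat body of the fly head stores and secretes lipids and proteins. Of 21 tested members 18 were higher and none lower, where 14.4% of all genes were higher. Their median log2 fold change was 0.73, and their summed level was 49383 to 51426 CPM in MB477 and 28643 to 30226 CPM in MB131. Lsp2, a storage protein gene on 3L at 12129393 to 12131869, was at 539, 536 and 529 CPM in the MB477 libraries and at 70.1, 87.9 and 78.3 CPM in the MB131 libraries, 6.79-fold higher (edgeR adjusted p = 2.42e-56). tobi, a glucosidase gene known to respond to insulin and adipokinetic hormone, was at 63.6, 67.3 and 61.0 CPM against 15.8, 15.1 and 14.5 CPM. Every MB477 library lay above every MB131 library for these genes. The lipid carrier apolpp rose by 0.92 and Lsd-1, a perilipin of lipid droplets, by 0.93 on the log2 scale. In activated flies without CsChrimson the summed level was 15735 to 17890 CPM, below both lines.

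The yolk proteins carried most of the fat body counts and are female-biased in flies. Yp3 was at 14295, 14594 and 14162 CPM in MB477 and at 7233, 7482 and 7670.1 CPM in MB131 (log2 fold change 0.94 ± 0.05 SE), while Yp1 rose by 0.73 ± 0.05 and Yp2 by 0.59 ± 0.06. The male-specific noncoding RNA roX1 fell by 0.47 on the log2 scale, whereas roX2, its partner in dosage compensation, was at -0.02 ± 0.08. Of 17 sex-biased and dosage compensation genes, 6 were higher, 3 lower and 8 not called. The 3 lower ones became 5 without MB477 library 3. Their number also rose with other size factors, with DESeq2 and in fits of the compared libraries alone, to at most 6. Over all genes, 29.3% were called. The part of the sex of the flies in the differences was not tested.

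Most muscle genes were higher in MB477. Of 22 tested members 19 were higher and none lower, with a median of 0.47 and called increases from 0.24 to 0.62, and their summed level was 13534 to 13640 CPM in MB477 and 10084 to 10222 CPM in MB131. Mhc, the myosin heavy chain, was at 2449, 2453 and 2423 CPM against 1592, 1589.7 and 1586 CPM (0.62 ± 0.04, edgeR adjusted p = 4.60e-26). Tm2, a tropomyosin, and Prm, the paramyosin, were higher by 0.58 ± 0.05 and 0.59 ± 0.05. Of 13 hemocyte genes 4 were higher, 4 lower (2 lower without MB477 library 3) and 5 not called, where 29.3% of all genes were called. NimC2 fell by 0.85 and Hml rose by 0.65 ± 0.14 on the log2 scale. The part of fat body and muscle RNA in the lower CPM of neuronal genes, and the reverse, was not tested.

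**Figure D4:**
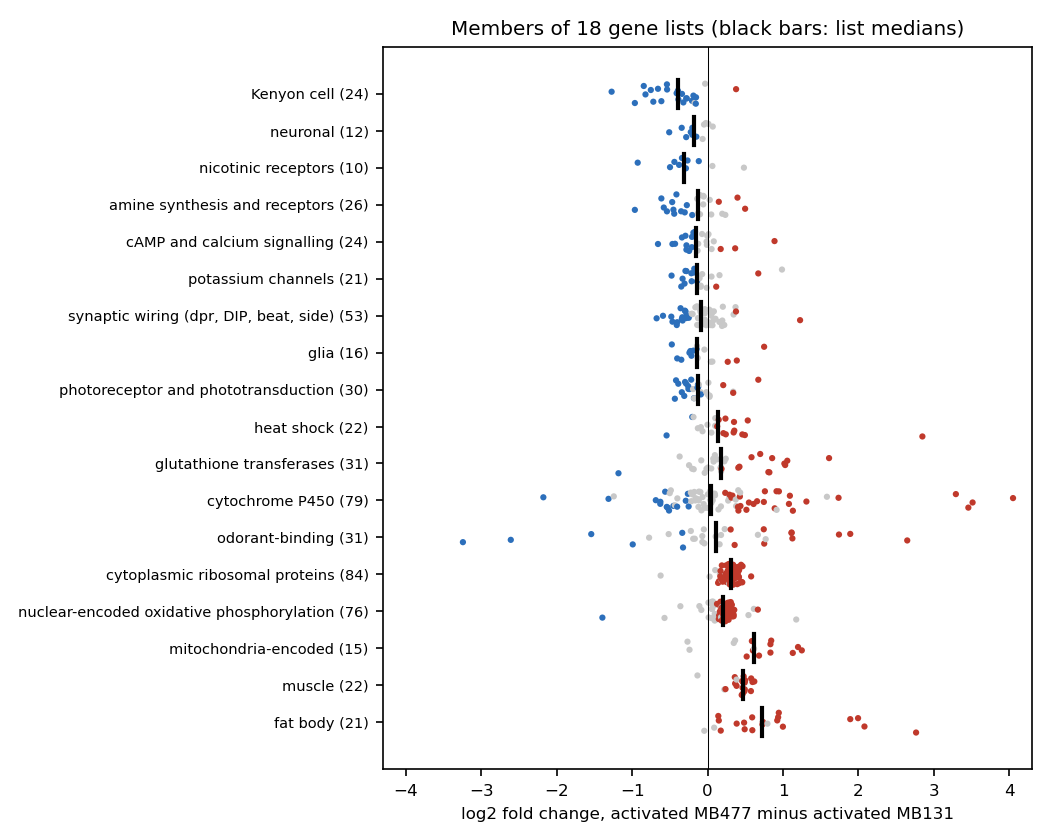
Log2 fold change of activated MB477 minus activated MB131 flies (x) for each tested member of 18 gene lists (rows, number of members in brackets). Red and blue points were called higher and lower, grey points were not called, black bars are medians, and 1 member beyond the axis is not drawn; the medians of Kenyon cell and nicotinic receptor genes lie left of 0, with those of ribosomal, muscle and fat body genes to the right.

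Most genes of cytoplasmic ribosomal proteins were higher in MB477 by small amounts. Of 84 cytoplasmic ribosomal protein genes 78 were higher and none lower, where 14.4% of all genes were higher. Their median was 0.31, with called increases from 0.14 to 0.58. RpS29 was at 442, 477 and 434 CPM against 287, 310.5 and 309 CPM, the largest rise of the list. RpS5b, a ribosomal protein gene with low levels, at 0.435 and 0.702 CPM on average in MB477 and MB131, was the lowest member and was not called. Of 76 nuclear genes of oxidative phosphorylation 50 were higher, 2 were lower and 24 were not called, with a median of 0.21. Both lower members, COX7AL and ND-49L, are variants of standard subunits. Of 15 mitochondria-encoded genes 10 were higher and none lower, with a median of 0.62 and larger called increases, from 0.52 to 1.249 on the log2 scale. The largest were mt:ND3 at 1.249 ± 0.13 and mt:ND4 at 1.20 ± 0.13, subunits of complex I, and mt:CoI at 1.13 ± 0.07. mt:CoI, a cytochrome c oxidase subunit, was at 3274, 3501 and 3326 CPM against 1539, 1595 and 1484 CPM.

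Odorant-binding proteins and immune peptides differed gene by gene. Of 31 odorant-binding protein genes 10 were higher and 6 lower, a share of 51.6% beside 29.3% of all genes. Obp99a was at 115, 119 and 107 CPM in MB477 and at 19.2, 17.4 and 17.8 CPM in MB131 (2.65 ± 0.09, edgeR adjusted p = 2.20e-45), and Obp99b rose by 1.89 ± 0.11 on the log2 scale, while their neighbour Obp99d fell by 1.54. Of 16 antimicrobial peptide genes 4 were higher and 1 lower, a share of 31.3% beside 29.3% of all genes. DptA, a diptericin, was at 7.32, 11.1 and 7.12 CPM against 1.59, 3.11 and 1.27 CPM (2.11 ± 0.25), and Drsl5, a drosomycin-like peptide, was at 36.8, 33.7 and 36.7 CPM against 90.7, 90.3 and 92.2 CPM, a fall of 1.35. For both peptides the lines did not overlap. Of 22 heat shock genes 12 were higher, 2 lower and 8 not called, where 29.3% of all genes were called. Hsp70Ba was at 44.9, 52.0 and 46.8 CPM against 7.14, 6.14 and 6.66 CPM, and its copy Hsp70Bc fell by 0.54, but the Hsp70 genes are nearly identical and reads may have been split between them. Hsp68 rose from 1155, 1188 and 1200.3 CPM to 1713, 1734 and 1678 CPM.

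Of 23 genes known to respond to neuronal activity, 3 were higher and 5 lower, a share of 34.8% beside 29.3% of all genes, and 3 were lower without MB131 library 1 or MB477 library 2. Hr38, the nuclear receptor used as a marker of activity in insects, was at 19.0, 20.8 and 21.5 CPM in MB477 and at 20.5, 20.7 and 17.4 CPM in MB131 (log2 fold change 0.07 ± 0.14 SE, edgeR adjusted p = 0.777), and sr, the stripe factor, was at -0.18 ± 0.15 (adjusted p = 0.411). The groups overlapped for both. kay, the fly Fos, was higher, at 308, 327 and 314 CPM against 237, 232 and 234 CPM (0.43 ± 0.05). Arc1, which codes a capsid-forming protein of synapses, was lower, at 105, 98.2 and 95.9 CPM against 235, 221 and 229 CPM (-1.20 ± 0.05). Of 12 histone lysine demethylase genes 1 was called and 11 were not, where 29.3% of all genes were called. The called gene, Kdm2, was at -0.19 on the log2 scale with an edgeR adjusted p = 0.0197. That call was lost without MB477 library 1 or 2 or MB131 library 2, with an edgeR adjusted p of up to 0.152. Of 15 genes of histone H3 lysine 9 methylation and heterochromatin, 1 was lower and 14 were not called.

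The line difference itself differed between flies with and without RNAi for 423 genes, whose difference was more positive without RNAi (3.69%), and for 632 genes, whose difference was more negative (5.52%), by the interaction term of the same edgeR model. In muscle, 19 of 22 genes had a smaller line difference without RNAi than with it, with medians of 0.47 and 1.12 in the activated pairs. In naive flies with RNAi the muscle median was -0.14, with 4 higher and 10 lower, beside 11.2% and 11.6% of all genes. Of 76 genes of oxidative phosphorylation 33 had a more negative difference without RNAi and none a more positive one. Fat body genes went the other way, with a more positive difference without RNAi in 13 of 21 and a more negative one in 1. Of 22 presynaptic genes 12 had a more positive difference without RNAi, with medians of -0.05 and -0.34.

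Kenyon cell genes were lower in MB477 in activated flies with RNAi too, with 20 of 24 lower and a median of -0.34. In naive flies with RNAi, however, the median was -0.04, with 3 higher and 6 lower, beside 11.2% and 11.6% of all genes. prt was at -1.27 without RNAi and at -0.45 with it, and 8 of the 24 had a more negative difference without RNAi. The medians of nicotinic subunits and ribosomal protein genes changed little between these pairs. They were -0.31, -0.32 and -0.28 for the first and 0.31, 0.43 and 0.34 for the second. Single subunits varied more: nAChRalpha2 was at -0.44 and -0.30 in the activated pairs and at -0.08 in naive flies with RNAi. By contrast, nAChRalpha5 was at -0.50, -0.45 and -0.46. Photoreceptor genes had medians of -0.13 and -0.17 in activated flies, and of 0.18 in naive flies with RNAi, where 15 of 30 were higher and 2 lower. The naive libraries of MB477 without RNAi stood apart from all others in the series. Between activated and naive flies without RNAi, the line difference was more positive in 25.1% and more negative in 18.8% of all genes, and none of the list results above uses the naive pair.

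**Figure D5:**
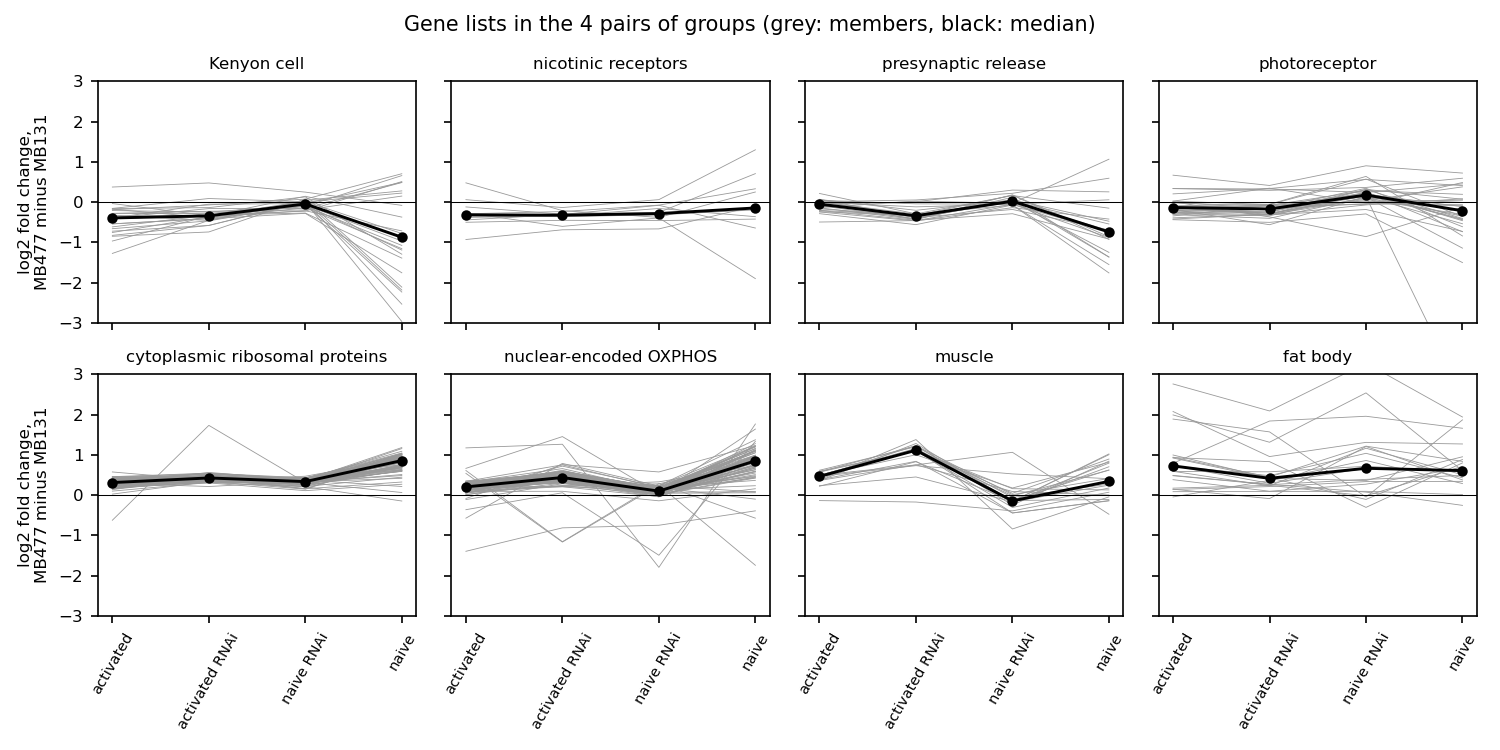
Log2 fold change of MB477 minus MB131 (y) in 4 pairs of groups (x) for the members (grey lines) and medians (black) of 8 gene lists; 3 members leave the axis. Ribosomal and nicotinic medians keep their level over the 3 pairs on the left, the muscle median goes from 0.47 and 1.12 to -0.14, and the pair of naive flies without RNAi holds the MB477 libraries that stood apart.

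Among the genes with an interaction, Adh, the alcohol dehydrogenase, was at 47.7, 48.1 and 52.0 CPM in activated MB477 and at 64.9, 62.3 and 62.2 CPM in activated MB131, a fall of 0.36 on the log2 scale, against a fall of 2.22 with RNAi. DptA was at 2.11 without RNAi and at -0.76 with it, and DptB, the other diptericin, was at 1.24 and -0.62. Both diptericin genes thus went in opposite directions in the 2 activated pairs. In naive flies with RNAi, however, DptA was at 2.16 and DptB at 1.72, the same direction as in activated flies without RNAi. w, the white gene, which serves as the marker of many transgenes, was at 101, 91.7 and 103 CPM against 109.8, 93.1 and 99.5 CPM without RNAi (-0.03 ± 0.06, edgeR adjusted p = 0.784). With RNAi its log2 fold change was 1.39 in activated and 2.25 in naive flies.

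Genes over 2-fold apart lay together in places. Of 265 windows of 500 kb with a tested gene, 82 held none and the median window held 1, while 14 held 5 or more. The densest, 3R from 29500001 to 30000000, held 12 of 78 tested genes, among them ppk20, ppk30, Obp99a, Obp99b, Obp99c and Obp99d. Of the 12, 10 were also called in both RNAi pairs. Over all genes over 2-fold apart, this held for 56.3% of the higher and 40.6% of the lower ones. ppk20, ppk30 and Obp99a adjoin at 29666814 to 29672334 and rose together by 5.00, 2.92 and 2.65 on the log2 scale, whereas Obp99d, CG15506 and lncRNA:CR46108, at 29714505 to 29722388, fell by 1.54, 1.60 and 1.77. The next window, 2L from 16500001 to 17000000, held 9 of 49 genes. Its members included the neighbours CG13284, at 1.64 ± 0.14 on the log2 scale, and CG31809, at -2.65 ± 0.17. Noncoding RNA genes were over 2-fold apart in 7.43% and pseudogenes in 17.9% of cases, against 3.48% of protein-coding genes, and these classes also have lower counts.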

How the data were processed

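Whole-number read counts per gene were deposited by the authors. Per the submitters' processing notes, they aligned reads with STAR to dm6 and counted them with HTSeq. Versions, the strand setting and the treatment of reads with several matches are not stated there, which leaves near-identical copies and overlapping genes uncertain. Genes were matched by FlyBase identifier (17253 matched, 306 not), and positions are from the BDGP6 annotation of the same assembly. The counts were analysed with edgeR 4.0.16 in R 4.3.3: filterByExpr (minimum count 10, minimum total 15), TMM scaling, a mean for each of the 10 groups over all 30 libraries, robust quasi-likelihood F tests and Benjamini-Hochberg adjustment over the 11457 genes tested, with a threshold of 0.05. The typical biological coefficient of variation was 6.33%. Log2 fold changes are MB477 minus MB131, and the SE was taken as the size of the change over the root of F. CPM uses TMM library sizes, and 3 counts, the floor used here, correspond to 0.218 to 0.275 CPM in these libraries. Intervals and floors cover counting error only.

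The script was tested on simulated data. Genes were named by a rule. It took the largest called changes without overlap in CPM, in genes with a mean of at least 5 CPM in the higher line. It added the largest that recurred in the RNAi pairs, up to 4 per list, the 5 largest interactions in each direction, and 5 genes throughout. COX7AL and lncRNA:CR44460, with lower levels, were named by these added parts. Other list members and genes of the windows were chosen after their values were seen. The 41 gene lists and the comparison were chosen with earlier results of these data known. Lists are described by counts and medians, with no test of a list. Alternatives were other size factors, other filters, fewer libraries, DESeq2 1.42.0, replicate blocks and leaving out each library. A deposited table of the authors' own comparisons, with log2 fold changes and p-values, was not used, since it holds no comparison of the lines.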

Additional observations from a re-analysis of the deposited data

Results flagged for a closer look

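A test of the difference between the activated line comparisons without and with Kdm4B RNAi (edgeR's interaction term) picked out 423 genes whose MB477 minus MB131 difference was more positive without RNAi, and 632 whose difference was more negative. The named genes with a more positive difference were Adh (1.86 on the log2 scale), the antimicrobial peptide genes DptA (2.87), DptB (1.86) and AttC (1.61), and CG1504 (1.78). Those with a more negative difference were phu (-2.19), CG9570 (-1.57), CG17217 (-2.27), lncRNA:CR45237 (-2.23) and lncRNA:CR45994 (-2.42). When each of the 6 activated libraries without RNAi was left out in turn, the call was lost for CG1504 (without library 3 of either line, adjusted p up to 0.0733), CG17217 (without MB477 library 2 or 3 or MB131 library 1 or 2, up to 0.150) and CG9570 (without MB131 library 2, 0.0739).

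Against naive flies without RNAi, the line difference in activated flies was more positive for 2873 genes and more negative for 2158. That comparison uses the 3 naive MB477 libraries that stood apart from the rest of the series, and their part in these counts was not tested.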

How the results depend on the processing

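Under 14 alternatives, the genes higher in MB477 numbered 1476 to 1866 and the lower ones 1441 to 1803, the genes called in the same direction with RNAi 1972 to 2295, and those with an interaction 748 to 1236; none moved by over 1.5 times. Leaving out a library gave 1476 to 1523, 1441 to 1528, 1972 to 2059 and 748 to 927. Same-numbered libraries of the lines did not deviate together (correlations of 0.00866, 0.00173 and -0.00399), and a replicate block gave 1652 higher and 1693 lower genes in all 30 libraries and 1827 and 1764 in the compared libraries alone. Of 195 called genes among the 201 named by the rule, 172 kept the call under every alternative that tested them. Another 23 lost it under at least 1, and none reversed. Some genes with low counts, such as CG44403, were tested under only 11 of the 14 alternatives. Signs turned in genes that were not called: leaving out a library gave Hr38 from -0.0077 to 0.12, Kdm4B from -0.57 to 0.41 and w from -0.079 to 0.038, and Kdm4B was at -0.038 with the replicate block in the compared libraries alone. The cause was not tested. Of 41 list medians, 30 kept their sign under every alternative and 11 did not. Among the 11 were secreted digestive enzymes (0.28, range 0 to 0.49), a list of proteases and of carbohydrate-cleaving enzymes such as Amy-p. Odorant, gustatory and ionotropic receptors, with Snmp1 and Snmp2 (0.15, range -0.01 to 0.16), and odorant-binding proteins (0.11, range 0 to 0.20) were others. So was the cuticle list (-0.11, range -0.25 to 0.01). That list also holds chorion genes such as Cp7Fb, and Cp190, Cp110 and Cpr, which are not cuticle genes. Depth limits genes such as Kdm4B, with about 1 CPM.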
